A study of Rattus norvegicus with 3 samples.

Results

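The 8 genes described here code for proteins through which cells sense and hold on to their surroundings. They are 2 mechanosensitive ion channels, Piezo1 and Trpv4, 5 integrin alpha subunits, Itga1, Itga4, Itga5, Itga10 and Itgav, and 1 integrin beta subunit, Itgb1. They were chosen by name for this role, and make up 8 of the 19241, 19665 and 19725 gene names in the 3 tables. Each of the 8 names stood on the same single identifier in all 3 tables: ENSRNOG00000056786 for Piezo1, ENSRNOG00000001195 for Trpv4, ENSRNOG00000053550 for Itga1, ENSRNOG00000004861 for Itga4, ENSRNOG00000057451 for Itga5, ENSRNOG00000021217 for Itga10, ENSRNOG00000004912 for Itgav and ENSRNOG00000010966 for Itgb1.

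Piezo1 is a cation channel that opens when the cell membrane is stretched, and Trpv4 is a calcium channel that responds to osmotic and mechanical stimuli in chondrocytes. Integrins are receptors made of an alpha and a beta subunit that tie the matrix outside the cell to the actin cytoskeleton, and the beta 1 subunit pairs with the alpha 1, 4, 5, 10 and v chains. In cartilage, integrin alpha 10 beta 1 is known as a receptor for type II collagen, whereas integrin alpha 4 beta 1 is known mainly from leukocytes, where it binds Vcam1 and fibronectin.

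The tissue was condylar cartilage with subchondral bone of SD rats labelled as wild type, and all animals received an AAV by injection into the temporomandibular joint. The sham group had Vector AAV and no unilateral anterior crossbite (UAC, a dental device that changes the bite and overloads the joint), a further group had UAC with Vector AAV, and the last, called the miR-330 group, had UAC with an AAV carrying miR-330. The label of the last library reads UAC treatment and names no agent, so miR-330 is taken from the study's design text, and every comparison with it rests on that. The animals were kept for 8 weeks. Each group gave 1 library, made from 16 condyles of 8 rats mixed together (24 rats in all), so no value belongs to a single rat.

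Single-cell libraries were counted in UMIs, the molecular tags that mark each captured RNA molecule. The sham library held 77668015 UMIs in 15 clusters of cells, the UAC library 92629658 in 18 clusters and the miR-330 library 97255383 in 19 clusters. Levels are given as CPM, the UMIs of a gene in each 1000000 UMIs of the cluster or library. The range in brackets after a level is its exact Poisson 95% interval, and levels are called apart where these intervals do not overlap. Differences between libraries are log2 ratios of CPM with 0.5 UMI added to each count and an exact conditional binomial 95% interval. All intervals cover counting error only. Each condition had only 1 library, so there is no replicate check of any difference, and the conditions were not tested against each other.

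The labels name the cell types as chondrocytes and osteoclast, and the marker genes bore out the former in 1 cluster of each library. Cluster 12 of the sham, 16 of the UAC and 17 of the miR-330 library had 17, 17 and 18 of 20 chondrocyte markers enriched, with a summed level of 63477, 50529 and 65629 CPM. Col2a1, the collagen of cartilage, led that list at 27180, 19379 and 24344 CPM, and Matn1 was at 0 in the UAC and miR-330 libraries. The same cluster had 10, 11 and 11 of 11 osteogenic markers enriched, led by Col1a1 at 57395, 46960 and 49062 CPM, and 9, 9 and 10 of 12 listed fibroblast markers, led by Col3a1 at 5091, 4767 and 3624 CPM. Its 10 leading genes by fold held 0, 2 and 0 chondrocyte markers and 0 of any other list. It is called the skeletal cluster here, because its markers cover chondrocytes, bone-forming cells and fibroblasts at once. Mural (vessel wall) markers were also enriched in it, 4 of 7 in each library, and summed to 388, 406 and 428 CPM, led by Cspg4. Their part in the ratios below was not tested. No cluster met the naming rule for osteoclasts: in the skeletal cluster 2 osteoclast markers were enriched in each library, and Ocstamp, Atp6v0d2 and Calcr were at 0 in all 3. Osteoclast markers in the macrophage-marker cluster described next had 1, 2 and 1 enriched and summed to 256, 192 and 115 CPM, led by Acp5 at 153 CPM in the sham library and by Nfatc1 in the others, and Ocstamp and Atp6v0d2 were above 0 there in all 3.

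A further cluster, 15 of the sham, 9 of the UAC and 10 of the miR-330 library, had all 14 macrophage markers enriched, at a summed level of 22405, 20673 and 22449 CPM with Lyz2 on top. This macrophage-marker cluster is compared by its number because its 10 leading genes held 0 macrophage markers and 0 of any other list. Mast cell and basophil markers differed in it, with 8, 0 and 0 of 9 listed enriched and a summed level of 399, 3.92 and 8.02 CPM, led by Cpa3 at 166 CPM in the sham library. Erythroid markers summed to 1161, 55.2 and 73.3 CPM there, led by Hba-a1. Most other clusters were B-cell-like (9, 7 and 8 clusters, with 57.4%, 44.3% and 45.6% of the UMIs) or neutrophil-like (2, 3 and 3 clusters). Dendritic-like, T-NK-like and erythroid-like clusters were named in the UAC and miR-330 libraries, and a mast-basophil-like cluster in the UAC library.

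Across the clusters the 8 genes fell into distinct patterns. Trpv4 and Itga10 lay almost wholly in the skeletal cluster. Piezo1 and Itgb1 were highest in the skeletal and macrophage-marker clusters, Itga5 was highest in the macrophage-marker cluster, and Itga1 was shared between skeletal and neutrophil-like clusters. Itga4 was high in B-cell-like, dendritic-like, T-NK-like and macrophage-marker clusters. Its levels in the skeletal and neutrophil-like clusters were among its lowest.

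Of the channels, Piezo1 had 118 CPM (111 to 126) in the skeletal cluster of the sham, 156 (146 to 167) in that of the UAC and 144 (134 to 154) in that of the miR-330 library. The macrophage-marker cluster came next in each library, with 106, 144 and 141 CPM, and its interval overlapped that of the skeletal cluster each time. All other clusters lay apart below this pair. T-NK-like clusters, named only with UAC, had 54.3 CPM in the UAC and 49.997 CPM in the miR-330 library, and neutrophil-like clusters had 14.9, 16.5 and 19.8 CPM. B-cell-like clusters had 5.002, 4.33 and 3.78 CPM, or 4.23%, 2.77% and 2.63% of the skeletal level. These shares are above those of the collagens below. The skeletal cluster held 53.4% of the Piezo1 UMIs in the sham, 33.8% in the UAC and 30.1% in the miR-330 library, and the macrophage-marker cluster 18.03%, 30.5% and 29.96%.

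Trpv4 had 121 CPM (114 to 128) in the skeletal cluster of the sham, 96.7 (88.9 to 105) in that of the UAC and 121 (112 to 130.4) in that of the miR-330 library. That cluster held 96.5%, 97.0% and 95.3% of all Trpv4 UMIs. The next cluster of the sham library, which stayed unnamed, had 10 UMIs and 6.45 CPM, and the clusters that came next in the other libraries had 3 and 6 UMIs. B-cell-like clusters held 18, 7 and 13 Trpv4 UMIs, which is 0.334%, 0.176% and 0.242% of the skeletal level. RNA free in the droplets gives such traces of genes that a cell does not express, and Col1a1, which B cells should lack, had 0.269%, 0.159% and 0.127% of its skeletal level in the same clusters. The interval of this Trpv4 share overlapped that of Col1a1 in each library, but in the sham library its range of 0.198% to 0.529% lay above that of Col2a1, 0.164% to 0.178%. Whether these UMIs can be told apart from background thus depends on the gene used as a measure. The unnamed sham cluster with 10 UMIs had an interval of 3.10 to 11.9 CPM, apart from the cluster after it. The macrophage-marker cluster of the miR-330 library held 9 Trpv4 UMIs, which came to 1.24% (0.567 to 2.36) of the skeletal level, above the 0.114% of Col1a1 there, and the source of these few UMIs was not tested.

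Itga10, the alpha chain of a collagen receptor of chondrocytes, followed the same pattern. Its skeletal level was 158 CPM (149 to 166), 155 (145 to 165) and 164 (154 to 174) in the sham, UAC and miR-330 libraries, and these intervals overlapped. The skeletal cluster held 96.8%, 94.5% and 95.3% of its UMIs. The clusters next in order had 5.16 CPM (2.23 to 10.2, an unnamed cluster of the sham library), 1.49 CPM (a B-cell-like one of the UAC library) and 5.64 CPM (3.22 to 9.16, an erythroid-like one of the miR-330 library), on 8, 5 and 16 UMIs. The macrophage-marker cluster held 0, 0 and 2 Itga10 UMIs, where a count of 0 allows up to 1.09 CPM in the sham and 0.629 CPM in the UAC library. Its level in B-cell-like clusters was 0.384%, 0.424% and 0.138% of the skeletal level, beside 0.293%, 0.159% and 0.111% for Acan, the large proteoglycan of cartilage. In the UAC library the interval of Itga10, 0.280% to 0.618%, lay above that of Acan, 0.129% to 0.194%, and in the others the intervals overlapped.

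Itga1, the alpha chain of a receptor for collagens, had 29.8 CPM (26.4 to 33.6) in the skeletal cluster of the sham, 27.3 (23.2 to 31.8) in that of the UAC and 66.6 (60.2 to 73.5) in that of the miR-330 library. Its level over the neutrophil-like clusters was 31.9, 37.2 and 51.5 CPM, so these clusters, not only the skeletal one, carried much of it. Single neutrophil-like clusters ranged from 29.5 to 35.7 CPM in the sham, from 14.0 to 52.4 in the UAC and from 29.5 to 81.8 in the miR-330 library. The skeletal cluster held 46.4%, 21.8% and 32.2% of the Itga1 UMIs, and the neutrophil-like clusters 42.9%, 57.0% and 43.7%. In B-cell-like clusters Itga1 was at 0.942, 0.852 and 1.37 CPM, and the macrophage-marker cluster held 5, 6 and 5 UMIs.

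Itga4, the alpha 4 chain of leukocyte integrins, had 10.1 CPM in the skeletal cluster of the sham, 13.0 in that of the UAC and 12.7 in that of the miR-330 library. The skeletal cluster ranked last of all clusters in the sham and miR-330 libraries, and in the UAC library a neutrophil-like cluster ranked last with 7.45 CPM, though the interval of the lowest cluster overlapped the next in each library. B-cell-like clusters together had 182, 207 and 332 CPM and held 82.9%, 59.9% and 56.2% of the Itga4 UMIs. The dendritic-like cluster was the highest of the miR-330 library at 678 CPM, and in the UAC library it had 368 CPM and overlapped the next cluster, an unnamed one at 352 CPM. Its name rests on 3 enriched dendritic markers at 50 CPM or more in the UAC and 4 in the miR-330 library. It also had 10 B markers at 50 CPM or more in each. Neutrophil-like clusters had 14.0, 9.64 and 22.8 CPM, far below the other leukocyte clusters.

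Itga5, the alpha chain of the classical fibronectin receptor, had its highest level in the macrophage-marker cluster, with 83.3 CPM (73.9 to 93.6) in the sham, 120.3 (112 to 130) in the UAC and 121 (113 to 131) in the miR-330 library. The cluster that ranked next, with 43.8, 44.8 and 56.6 CPM, was number 11 of the sham, 15 of the UAC and 14 of the miR-330 library. Its counterparts differ in name, since it met the rule for B-cell-like clusters in the sham library and stayed unnamed in the others. Below it came the skeletal cluster with 22.4, 29.1 and 28.7 CPM, and each of these steps lay apart from the next.

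Itgav, the alpha chain of vitronectin and osteopontin receptors, differed less between clusters. It had 50.0004 CPM (45.5 to 54.8), 66.7 (60.3 to 73.6) and 69.8 (63.2 to 76.9) in the skeletal cluster and 61.7, 101 and 88.7 CPM in the macrophage-marker cluster. A B-cell-like cluster of the sham library, number 7 with 106 Itgav UMIs, ranked above both at 78.4 CPM, and its interval overlapped that of the macrophage-marker cluster. Neutrophil-like clusters were lowest as a class in each library, at 8.97, 9.37 and 15.3 CPM.

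Itgb1, the shared beta chain, had 204 CPM (194 to 213) in the skeletal cluster of the sham, 252 (239 to 265) in that of the UAC and 298 (285 to 313) in that of the miR-330 library. The macrophage-marker cluster had 182, 236 and 303 CPM, with intervals that overlapped those of the skeletal cluster. T-NK-like clusters followed with 203 CPM in the UAC and 272 CPM (251 to 294) in the miR-330 library, where the interval overlapped that of the skeletal cluster. In the sham library cluster 11, a B-cell-like one, had 166 CPM (154 to 180) and overlapped the macrophage-marker cluster. B-cell-like clusters had 69.4, 60.6 and 70.7 CPM, and neutrophil-like clusters 10.0, 6.92 and 7.45 CPM, so the neutrophil-like clusters held Itga1 with little RNA of its only listed beta partner.

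**Figure D1:**
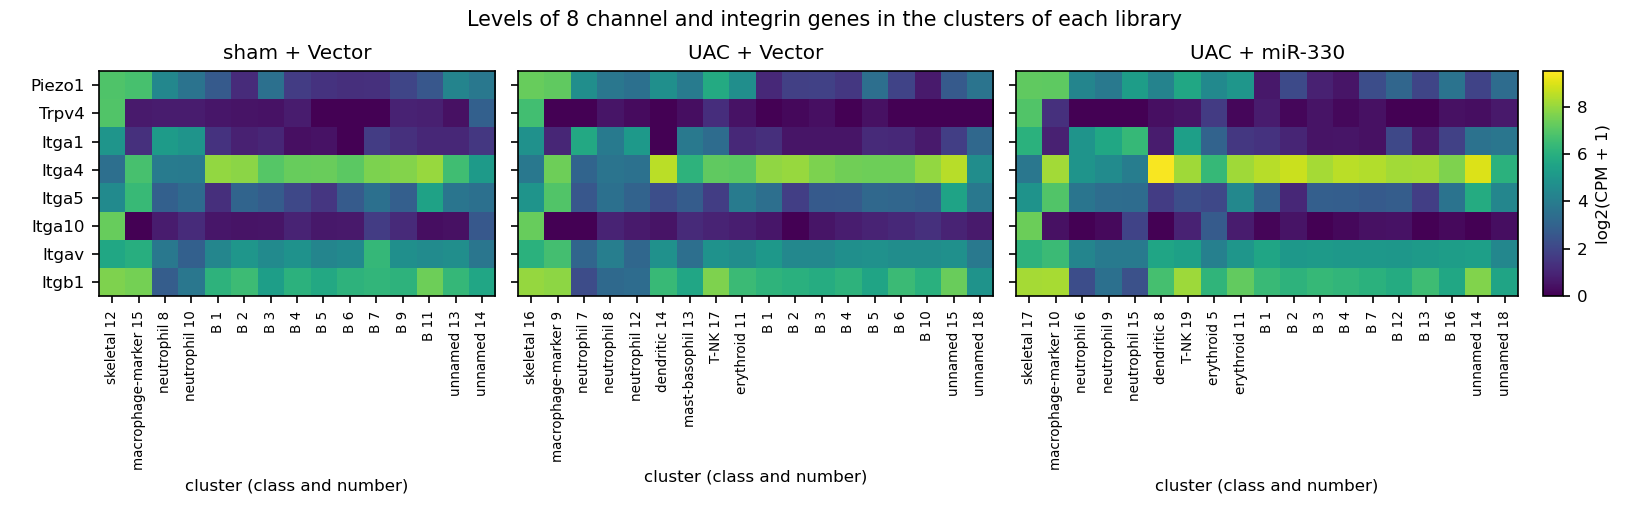
Colour shows the level of each of the 8 genes (vertical axis) in each cluster (horizontal axis, marker-based class and cluster number) as log2(CPM + 1), 1 panel per library with no error shown. Trpv4 and Itga10 stand out in the skeletal cluster alone, at 121 and 158 CPM in the sham library, and Itga4 in the dendritic-like cluster of the miR-330 library at 678 CPM.

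The UAC and sham libraries were compared to see how the channels and integrins stood after the bite had been changed. In the skeletal cluster Piezo1, Itgb1, Itgav and Itga5 were higher in the UAC library, by ratios of 1.24 to 1.33, and Trpv4 was lower. Of all genes compared there, 19.5% had a ratio at least as high as Itgav and 29.3% at least as high as Itgb1, with Piezo1 and Itga5 between. Itga1, Itga4 and Itga10 had intervals of the ratio that included no difference. In the macrophage-marker cluster Itga4 and Itgav were higher by more than 1.5 times, and over all clusters together Trpv4 and Itga10 were lower by more than 1.5 times.

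A gene is counted as called where the ratio was at least 1.5 and both libraries together held at least 50 UMIs. In the skeletal cluster all 8 genes had enough UMIs, and 0 were called higher and 0 lower, beside 10.5% and 1.61% of the 10052 genes compared. In the macrophage-marker cluster 5 of the 8 had enough UMIs, and 2 were called higher (Itga4, Itgav) and 0 lower, beside 3.73% and 9.62% of 8585 genes. Over all clusters 0 were called higher and 2 lower (Trpv4, Itga10), beside 6.97% and 6.05% of 14235 genes. The median log2 ratio of the 8 genes in the skeletal cluster was 0.34, beside 0.14 for all genes compared there, and over all clusters it was 0.11 beside −0.02. The 5 genes compared in the macrophage-marker cluster had a median of 0.53 beside −0.06, with all 5 intervals above 0. Whether a group of this size differs from other genes was not tested.

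These calls lean on the scaling. Deposited mean counts shift every log2 ratio up by 0.20 against CPM in this comparison, because the authors' tables add up to a larger number in the UAC library. In the skeletal cluster 86.7% of all called genes were higher by CPM, 96.7% by the deposited mean counts and 69.1% after centring on the median gene. The same shares were 27.9%, 62.0% and 37.9% in the macrophage-marker cluster and 53.5%, 77.3% and 56.4% over all clusters.

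For Piezo1 the log2 ratio of UAC over sham was 0.40 (0.27 to 0.53) in the skeletal cluster and 0.44 (0.26 to 0.62) in the macrophage-marker cluster, with levels apart in both. In neutrophil-like clusters it was 0.15 (−0.19 to 0.49) and in B-cell-like clusters −0.21 (−0.50 to 0.08), where no difference was detectable at this depth. The channel was thus higher in the UAC library in both clusters where it was most abundant. Of the genes compared, 20.6% in the skeletal and 7.26% in the macrophage-marker cluster had a ratio at least as high.

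Trpv4 had a skeletal log2 ratio of −0.32 (−0.47 to −0.17), and its levels of 121 and 96.7 CPM were apart. Chondrocyte markers moved the same way in this cluster, with sums of 63477, 50529 and 65629 CPM and log2 ratios of Col2a1 of −0.49 between sham and UAC and 0.33 with miR-330, and their part in the Trpv4 ratios was not tested. Over all clusters the gap was wider, 14.5 CPM in the sham and 6.43 CPM in the UAC library with a log2 ratio of −1.17 (−1.32 to −1.03). Itga10 had a skeletal log2 ratio of −0.02 (−0.15 to 0.10), and over all clusters 18.9 and 10.6 CPM with a log2 ratio of −0.84 (−0.96 to −0.72). The skeletal cluster itself held 11.6% of the UMIs of the sham and 6.46% of those of the UAC library, and in such sums over a whole library fewer cells of a type and less RNA per cell cannot be told apart. With each class of clusters weighted alike, 0 of the 8 genes were called lower.

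Of the alpha chains, Itgav had a log2 ratio of 0.42 (0.22 to 0.61) in the skeletal and 0.71 (0.48 to 0.95) in the macrophage-marker cluster. Itga5 had 0.38 (0.08 to 0.68) and 0.53 (0.33 to 0.73), the former with levels that overlapped, and Itga4 had 0.37 (−0.08 to 0.82) and 0.69 (0.51 to 0.87). All 3 were apart in the macrophage-marker cluster. In neutrophil-like clusters Itga4 had 14.0 and 9.64 CPM with levels that overlapped and a log2 ratio of −0.54 (−0.93 to −0.14), and Itgb1 had −0.53 (−1.001 to −0.06) there, also with levels that overlapped. Itga1 had a skeletal log2 ratio of −0.13 (−0.42 to 0.16), and on the deposited mean counts the values of Itga1 and Itga10 turned to 0.07 and 0.17.

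The name of a cluster decided the direction for some genes in B-cell-like clusters. Itga5 had a log2 ratio of −0.27 there and Itgb1 of −0.20, but without cluster 11 of the sham library, whose counterparts stayed unnamed, these became 0.48 and 0.00, and that of Itga4 went from 0.19 to 0.25. This alternative was chosen after seeing the data.

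Itgb1 was higher in the UAC library in the skeletal cluster, with a log2 ratio of 0.31 (0.21 to 0.41), and in the macrophage-marker cluster, with 0.37 (0.24 to 0.51). Over all clusters it had 85.1 and 87.5 CPM and a log2 ratio of 0.04 (−0.01 to 0.09). The difference within the 2 clusters was thus not seen in the library as a whole, and the cause was not tested. B-cell-like clusters held 57.4% of the UMIs of the sham and 44.3% of those of the UAC library, and the skeletal cluster 11.6% and 6.46%.

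Markers of other cells moved in the same clusters. Neutrophil markers in the skeletal cluster summed to 1254, 4387 and 869 CPM in the sham, UAC and miR-330 libraries, with 0 of 12 enriched in each, led by S100a9 at 495 and 1891 CPM in the sham and UAC libraries and by S100a8 at 335 CPM in the miR-330 library, and with Ltf at 0 in the sham and miR-330 libraries. Cycling markers in that cluster summed to 103, 244 and 113 CPM with 0 of 7 enriched, led by Ube2c in the sham and UAC libraries and by Mki67 in the miR-330 library. Macrophage markers had 1 of 14 enriched and summed to 143, 222 and 148 CPM, led by Lyz2, with Cd163 at 0. Endothelial markers had 3, 1 and 1 of 7 listed enriched and summed to 47.9, 12.2 and 11.04 CPM, led by Emcn in the sham library and by Egfl7 in the others, where Cdh5, Kdr and Emcn were at 0. Erythroid markers in the skeletal cluster summed to 62.2, 36.6 and 66.3 CPM and those of T and NK cells to 18.5, 28.3 and 12.6 CPM. Those of early granulocytes summed to 4.32, 17.2 and 4.93 CPM, with 0 enriched in each of these lists. The part of all these lists but that of neutrophils in the skeletal ratios was not tested. After the profile of the neutrophil-like clusters had been subtracted, which took 0.297%, 1.05% and 0.234% of the skeletal UMIs, none of the 16 skeletal ratios of the 8 genes moved beyond its counting interval. Megakaryocyte markers in the macrophage-marker cluster had 1 of 6 enriched and summed to 136, 44.8 and 53.8 CPM, led by Pf4. Osteogenic markers there had 0 of 11 enriched and summed to 283, 163 and 186 CPM. The part of these and of the mast cell, basophil and erythroid RNA of the sham macrophage-marker cluster in its ratios was not tested.

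**Figure D2:**
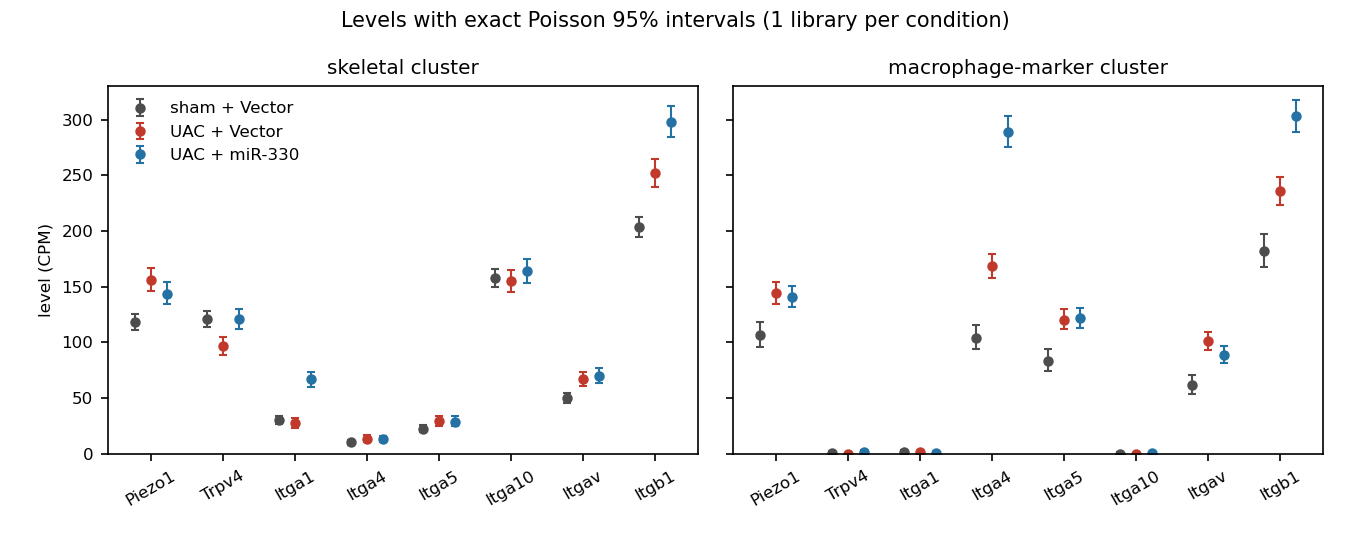
Level in CPM (vertical axis) of the 8 genes (horizontal axis) in the skeletal and macrophage-marker clusters, 1 point per library in grey (sham), red (UAC) and blue (miR-330), with exact Poisson 95% intervals as bars. Itga1 reaches 66.6 CPM in the skeletal cluster of the miR-330 library, and Itga4 climbs from 104 through 168 to 289 CPM in the macrophage-marker cluster.

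The miR-330 library was then compared with the UAC library to see how the same genes stood after the miR-330 vector; both comparisons share the UAC library, so their values are given side by side and not related to each other. Itga1 was 2.44 times as high in the skeletal cluster, and Itga4 was higher in every class of clusters compared except the skeletal cluster. Trpv4 and Itgb1 were higher in the skeletal cluster by less than 1.5 times. Piezo1, Itga4, Itga5, Itga10 and Itgav had skeletal ratios whose intervals included no difference.

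In the skeletal cluster 1 of the 8 genes was called higher (Itga1) and 0 lower, beside 8.48% and 8.01% of the 9798 genes compared. In the macrophage-marker cluster 1 of the 5 genes with enough UMIs was called higher (Itga4) and 0 lower, beside 14.7% and 3.2% of 9076 genes, and over all clusters 2 were called higher (Itga1, Itga4) and 0 lower, beside 11.4% and 3.67% of 14485 genes. The share of 1 in 8 or 1 in 5 is near these backgrounds and says nothing about the group as a whole. The median log2 ratio was 0.07 in the skeletal cluster, beside 0.02 for all genes, 0.01 for the 5 genes of the macrophage-marker cluster beside 0.18, and 0.31 over all clusters beside 0.13. After centring on the median gene the call of Itga1 over all clusters is lost and Itga4 alone is left.

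The deposited mean counts shift every log2 ratio up by 0.24 in this comparison. By CPM 51.4% of all called genes were higher in the skeletal cluster, 83.3% by the deposited mean counts and 48.4% after centring. The shares were 82.1%, 96.0% and 56.2% in the macrophage-marker cluster, and 75.6%, 94.3% and 51.6% over all clusters. The median gene had a log2 ratio of 0.18 in the macrophage-marker cluster and of 0.13 over all clusters, against which the values there are to be read.

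Piezo1 had a log2 ratio of miR-330 over UAC of −0.12 (−0.26 to 0.01) in the skeletal cluster and −0.04 (−0.18 to 0.10) in the macrophage-marker cluster, the former turning to 0.11 on the deposited mean counts and the latter also above 0 once the shift of 0.24 is added. No difference was detectable at this depth. Trpv4 had a skeletal log2 ratio of 0.33 (0.17 to 0.49), from 96.7 to 121 CPM with levels apart. Over all clusters Trpv4 had 6.43 and 7.69 CPM, with a log2 ratio of 0.26 (0.10 to 0.42). Itga10 had 0.08 (−0.05 to 0.21) in the skeletal cluster and −0.02 (−0.15 to 0.10) over all clusters, the latter turning to 0.21 on the deposited mean counts.

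Itga1 had the largest ratio of the 8 genes in the skeletal cluster, where its level of 27.3 CPM in the UAC library stood against 66.6 CPM in the miR-330 library. The log2 ratio was 1.29 (1.02 to 1.56), and 0.633% of the genes compared there had a ratio at least as high. The sham level of 29.8 CPM lay with the UAC level. In neutrophil-like clusters the log2 ratio was 0.47 (0.28 to 0.66), beside 0.27 for the median gene. On few UMIs it was 0.68 (0.07 to 1.33) in B-cell-like clusters, with 35 and 61 UMIs. In erythroid-like clusters it was 1.18 (0.38 to 2.13), with 16 and 49 UMIs. The T-NK-like clusters held 20 and 94 Itga1 UMIs, or 9.13 and 40.5 CPM, with a log2 ratio of 2.12 (1.44 to 2.92). That cluster of the miR-330 library had 7 mast cell and basophil markers enriched at 50 CPM or more, whereas the UAC library had a mast-basophil-like cluster of its own with 13.5 CPM of Itga1, so the T-NK-like clusters of the 2 libraries differ in makeup.

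Itga4 had a log2 ratio of 0.82 (0.79 to 0.85) over all clusters, from 153 to 270 CPM. By class the log2 ratio was 0.68 (0.65 to 0.72) in B-cell-like, 0.78 (0.67 to 0.89) in macrophage-marker, 0.88 (0.77 to 1.00) in dendritic-like and 0.90 (0.82 to 0.98) in erythroid-like clusters. It was 0.97 (0.77 to 1.16) in T-NK-like and 1.24 (0.91 to 1.59) in neutrophil-like clusters. The erythroid-like class was 1 cluster of the UAC library, number 11 with 136 CPM of Itga4. In the miR-330 library it was 2, number 5 with 81.8 and number 11 with 286 CPM. Number 11 of each library also had 9 B markers at 50 CPM or more, and the dendritic-like cluster of each had 10. The medians of all genes compared in those classes lay between 0.03 and 0.27. Between 1.77% of genes in the neutrophil-like and 7.38% in the macrophage-marker cluster had a ratio at least as high as Itga4. Dendritic markers in the macrophage-marker cluster, the list of the class where Itga4 was highest, were enriched for 6, 3 and 6 of 9 and summed to 233, 117 and 222 CPM in the 3 libraries, led by Irf8, with Cd209a at 0 in the sham and miR-330 libraries. Cycling markers there summed to 419.5, 281 and 531 CPM with 0 of 7 enriched, led by Mki67. Neutrophil markers there had 1 of 12 enriched and summed to 6433, 6227 and 4128 CPM, led by S100a8, with Ltf at 0 in the sham and UAC libraries. Those of early granulocytes (0 of 6 enriched) summed to 21.9, 27.9 and 57.96 CPM, led by Gfi1 in the sham library and Mpo in the others, and B markers (0 of 14 enriched) to 1125, 679 and 726 CPM, led by Ebf1. The part of these lists in the Itga4 ratios was not tested. In the skeletal cluster, with 78 and 75 UMIs, its log2 ratio was −0.03 (−0.51 to 0.44), which turned to 0.20 on the deposited mean counts.

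Itga5 had a log2 ratio of −0.02 (−0.33 to 0.29) in the skeletal cluster, 0.22 on the deposited mean counts, and 0.01 (−0.14 to 0.16) in the macrophage-marker cluster. Itgav had 0.07 (−0.14 to 0.27) and −0.19 (−0.36 to −0.02) there, the latter with levels that overlapped and a direction that turns once the shift of 0.24 is added. In B-cell-like clusters Itgav was higher, with 25.2 and 36.6 CPM and a log2 ratio of 0.53 (0.42 to 0.65). Its log2 ratio was 0.80 (0.36 to 1.26) in dendritic-like and 0.70 (0.34 to 1.07) in neutrophil-like clusters. It was 0.57 (0.09 to 1.06) in T-NK-like and 0.26 (0.06 to 0.46) in erythroid-like clusters. Itga5 and Itgav thus did not follow Itga4 in the macrophage-marker cluster, but Itgav was higher in the other classes just listed. Of the genes compared in those classes, between 5.57% (dendritic-like) and 29.8% (erythroid-like) had a ratio at least as high as Itgav.

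Itgb1 was higher in the miR-330 library in the skeletal cluster, with a log2 ratio of 0.24 (0.14 to 0.34), in the macrophage-marker cluster, with 0.36 (0.26 to 0.46), and over all clusters, with 0.39 (0.35 to 0.43). Of the genes compared, 28.3% in the skeletal and 31.7% in the macrophage-marker cluster had a ratio at least as high as Itgb1. Its skeletal levels of 204, 252 and 298 CPM were apart between all 3 libraries. Against the sham library the skeletal log2 ratio of Itgb1 in the miR-330 library was 0.55 (0.46 to 0.65).

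**Figure D3:**
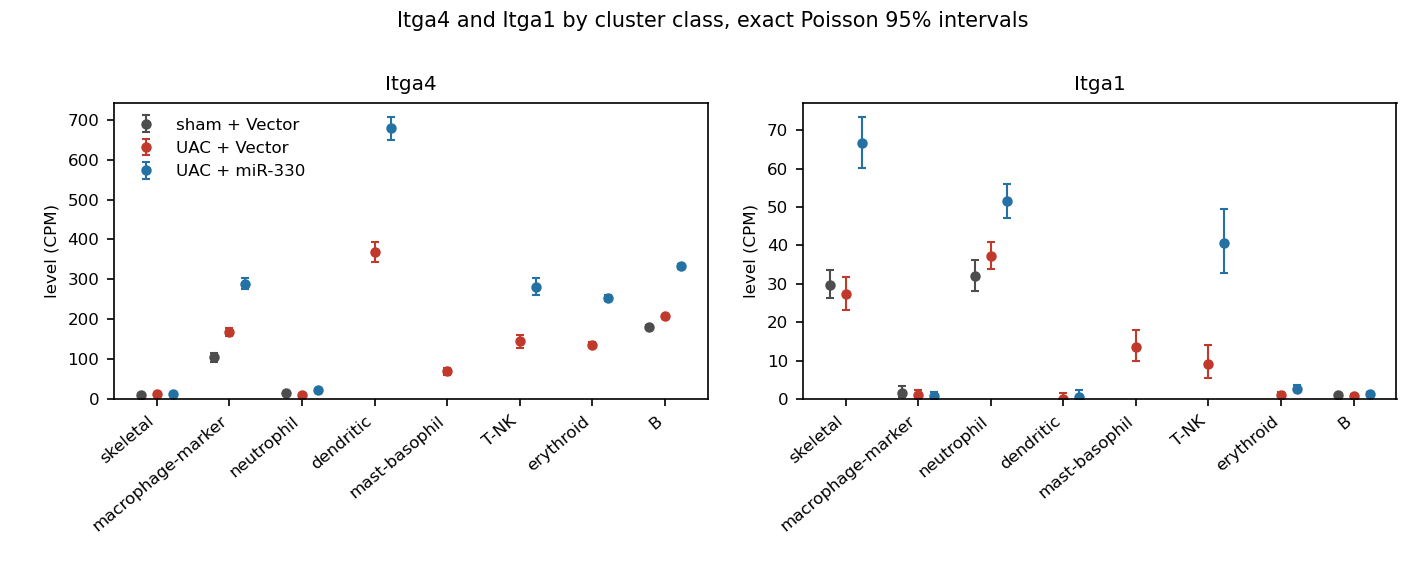
Level in CPM (vertical axis) of Itga4 (left) and Itga1 (right) in each marker-based class of clusters (horizontal axis), with exact Poisson 95% intervals as bars and 1 colour per library as in the key; a class with no named cluster in a library has no point. Itga4 is higher in the miR-330 than in the UAC library in 6 classes and not in the skeletal cluster (13.0 and 12.7 CPM, a direction that turns on the deposited mean counts). Among the classes shown, Itga1 is highest in the skeletal cluster of the miR-330 library at 66.6 CPM.

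The UMIs of each alpha chain were also taken as a share of those of the 5 alpha genes together, which leaves out other partners of Itgb1 such as Itga6. In the skeletal cluster, with 2434, 1740 and 2011 such UMIs, Itga10 made up 58.4% (56.4 to 60.3, exact binomial interval) in the sham, 53.2% (50.8 to 55.6) in the UAC and 47.9% (45.7 to 50.1) in the miR-330 library. These shares lay apart in all 3, while the level of Itga10 itself did not. Itga1 made up 11.1% (9.83 to 12.4), 9.37% (8.04 to 10.8) and 19.5% (17.8 to 21.3). In the macrophage-marker cluster Itga4 made up 41.6% (38.2 to 45.0), 43.1% (41.0 to 45.1) and 57.8% (56.0 to 59.6), and Itga5 33.2%, 30.8% and 24.3%. A gain of 1 chain lowers the share of the others, so the shares are not independent.

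The other genes of adhesion and mechanical sensing were taken as 5 hand-written lists. Their counts of called genes stand beside the shares of all genes given above: between sham and UAC 10.5% higher and 1.61% lower in the skeletal and 3.73% and 9.62% in the macrophage-marker cluster, and with miR-330 8.48% and 8.01% in the former and 14.7% and 3.2% in the latter. Of 20 other integrin genes 6 had enough UMIs in the skeletal cluster of the UAC and sham libraries, 2 were called higher and 0 lower, and the median log2 ratio was 0.44 beside 0.14 for all genes. Those 2 were Itgb2, the beta chain of leukocyte integrins, with 2.99 and 9.70 CPM, and Itga9, with 5.88 and 12.5 CPM. Itgb5, a partner of Itgav, had 103 CPM in the sham, 135 in the UAC and 107 in the miR-330 library. With miR-330, 7 had enough UMIs, Itga6, an alpha chain of laminin receptors, was called higher (48.3 and 84.8 CPM) and Itgb2 lower (9.70 and 3.398 CPM), with a median of −0.06 beside 0.02. The Itgb2 levels moved with the neutrophil markers in the skeletal cluster. Over all clusters 7 of 17 other integrins were called higher and 0 lower between sham and UAC, with a median of 0.51, beside 6.97% and 6.05% of all genes. Named after their values were seen, they are Itga2, Itga3, Itgb8 and the leukocyte integrins Itgal, Itgam, Itgax and Itgb2, in libraries where the macrophage-marker cluster held 4.36% and 6.33% of the UMIs and neutrophil-like clusters 10.05% and 12.3%. With miR-330 1 was called higher and 1 lower, beside 11.4% and 3.67% of all genes, with a median of 0.10 beside 0.13.

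Of the other integrins 10 had enough UMIs in the macrophage-marker cluster. Between sham and UAC, Itgal, the alpha chain of a leukocyte integrin, was called higher with 83.6 and 132 CPM, and 3 genes were called lower, of which Itgb5 had 47.6 and 10.1 CPM and Itga9 19.2 and 4.60 CPM with levels apart. Between UAC and miR-330, Itga9 had 4.60 and 11.02 CPM and was 1 of 2 genes called higher, with 0 called lower. Itgav, which pairs with Itgb5, was thus higher in the UAC library where Itgb5 was lower.

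Of 20 other channels linked to mechanical stimuli, 9 had enough UMIs in the skeletal cluster. Between sham and UAC 1 was called higher, Tmem87a with 24.3 and 38.0 CPM, and 0 lower, with a median of 0.13 beside 0.14. Trpm7, a channel with a kinase domain, had 93.2, 126 and 126 CPM in the 3 libraries, and Pkd1 61.0, 62.7 and 67.6 CPM. With miR-330 0 were called either way, and the median was 0.02. Of 7 compared in the macrophage-marker cluster, Tmem63b was called lower between sham and UAC, with 13.3 and 7.16 CPM, and 0 were called with miR-330. Piezo2, the relative of Piezo1, was below the 50 UMIs in the skeletal cluster in both comparisons. Over all clusters it had 34, 17 and 46 UMIs in the 3 libraries and was called lower between sham and UAC, with a log2 ratio of −1.23 (−2.19 to −0.37), and higher with miR-330, with 1.34 (0.54 to 2.26). It is named after its values were seen. In the whole list over all clusters 0 of 14 were called higher and 1 lower between sham and UAC, beside 6.97% and 6.05% of all genes, and 2 higher and 1 lower with miR-330, beside 11.4% and 3.67%.

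Of 25 adaptor genes of focal adhesions, the plaques that join integrins to actin, 22 were compared between sham and UAC in the skeletal cluster and 2 were called higher, Fermt3 with 1.77 and 5.85 CPM and Tln2 with 5.43 and 13.4 CPM. The median was 0.19. Fermt3 is known from blood cells, and its level rested on 16 and 35 UMIs. Actn4, an actin crosslinker, had 172, 205 and 237 CPM, and Fermt2, an integrin activator, 149, 177 and 245 CPM in the 3 libraries. With miR-330, 0 of 21 were called higher and 3 lower, of which Csk, a kinase that restrains Src, had 86.0 and 51.1 CPM with levels apart, and the median was 0.10. Tln1, which links integrins to actin, was in the macrophage-marker cluster called higher with miR-330, at 267 and 454 CPM. There 1 of 18 adaptors was called higher and 0 lower, beside 14.7% and 3.2% of all genes. Between sham and UAC 0 of 18 were called higher there and 1 lower (Src), beside 3.73% and 9.62%. Over all clusters 1 of 24 adaptors was called higher and 3 lower between sham and UAC, beside 6.97% and 6.05% of all genes, and 1 higher and 0 lower with miR-330, beside 11.4% and 3.67%.

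Of 30 gene names of integrin ligands 23 were compared between sham and UAC in the skeletal cluster, 5 were called higher and 0 lower, and the median was 0.03. The 3 largest were Icam1, a ligand of leukocyte integrins, with 10.5 and 26.3 CPM, Lama2 with 7.10 and 15.05 CPM and Fbn1 with 6.43 and 11.9 CPM. Among the names are Ccn1 and Ccn2, other names of Cyr61 and Ctgf, and only the latter names were found. Cyr61, which is among the 5 called higher, and Ctgf are also counted in the list of YAP, TAZ and TEAD targets below. The most abundant, Col1a1 and Col2a1, had log2 ratios of −0.29 and −0.49. Between UAC and miR-330, 24 were compared, 4 were called higher and 1 lower, and the median was −0.11. Thbs1, a matrix glycoprotein, had 24.1 and 111 CPM, Col4a2 2.34 and 6.97 CPM and Ibsp, a bone matrix protein, 678 and 1357 CPM, whereas Col1a2 had 1927 and 1173 CPM. Col2a1 had a log2 ratio of 0.33 and Col1a1 of 0.06. Over all clusters the balance between sham and UAC was the other way, with 2 of 24 ligand genes called higher and 12 lower, beside 6.97% and 6.05% of all genes, and a median of −0.57 beside −0.02, in libraries where the skeletal cluster held 11.6% and 6.46% of the UMIs. With miR-330 8 of 25 were called higher and 1 lower over all clusters, beside 11.4% and 3.67%, with a median of 0.04 beside 0.13.

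Vcam1, a ligand of integrin alpha 4 beta 1, was below 50 UMIs in the skeletal cluster. In the macrophage-marker cluster it had 160.4 CPM in the sham, 10.2 in the UAC and 30.7 in the miR-330 library, so it was called lower in the first comparison and higher in the other. The levels of Itga4 in that cluster were 104, 168 and 289 CPM. Of 11 ligand genes compared there, 3 were called higher and 5 lower between sham and UAC, beside 3.73% and 9.62% of all genes, and 2 higher and 3 lower with miR-330, beside 14.7% and 3.2%. The 5 called lower include Col1a1 and Col2a1. Thbs1 had 17.7, 37.7 and 69.5 CPM, Icam1 197, 345 and 215 CPM and Lama4 3.55, 8.69 and 4.18 CPM in the 3 libraries. Col2a1 and Col1a1 had log2 ratios of −1.29 and −1.06 between sham and UAC. Their levels there were 0.157% and 0.230% of the skeletal level in the sham and 0.0897% and 0.135% in the UAC library. In B-cell-like clusters they were 0.171% and 0.269% in the sham and 0.123% and 0.159% in the UAC library. These levels are thus no higher than the traces of free RNA described above, and its part in the 2 ratios was not tested. In the sham library the macrophage-marker cluster also held the mast cell, basophil and erythroid markers given above, and their part was not tested.

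Of 19 genes of the YAP, TAZ and TEAD factors and their targets, which answer to tension of the cytoskeleton, 14 were compared between sham and UAC in the skeletal cluster, with 2 called higher, 1 lower and a median of 0.08. Over all clusters 0 of 17 were called higher and 5 lower, with a median of −0.48 beside −0.02 and shares of all genes of 6.97% and 6.05%, and with miR-330 0 were called either way. The skeletal cluster held 11.6% of the UMIs of the sham and 6.46% of those of the UAC library. Of the 3 called in the skeletal cluster only Cyr61 had levels apart, at 175 and 306 CPM. Ctgf had 1930.4 and 1601 CPM and a log2 ratio of −0.27. With miR-330 0 of 13 were called either way and the median was 0.16, with Cyr61 at 240.1 and Ctgf at 1380 CPM. Axl, a receptor kinase, was in the macrophage-marker cluster called lower between sham and UAC, with 99.6 and 18.9 CPM. There 0 of 5 were called higher and 1 lower, beside 3.73% and 9.62% of all genes, and with miR-330 0 of 5 were called.

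Likeness between genes was described by Pearson's r of log2(CPM + 1) over the 52 clusters, among 10645 genes with at least 200 UMIs in each library. Clusters of 1 library share their library and depth, and many share a cell type, so r is a description. Trpv4 was most like Slc38a3 (0.977), Irx5 (0.975) and Gpx7 (0.974), and Itga10 most like the gene listed as NEWGENE_621351 (0.972), Mxra8 (0.969) and Gpx8 (0.963). Piezo1 was most like Clip1 (0.885), Hnrnpll (0.872) and Map3k5 (0.870), and Itga1 most like Cd9 (0.905), Schip1 (0.890) and Ckap4 (0.866). The closest genes to Itga4 were Man2a1 (0.967), Slc38a1 (0.956) and Uggt1 (0.952), and those to Itga5 were Scamp1 (0.798), Il1r1 (0.793) and Crybg3 (0.786). For Itgav they were Glud1 (0.881), Hipk3 (0.868) and Slc38a6 (0.858), and for Itgb1 Utrn (0.951), Snd1 (0.938) and Pdia3 (0.928).

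Among the 8 genes themselves Trpv4 and Itga10 had an r of 0.941, the highest of the 28 pairs. Outside the skeletal cluster of each library they reached at most 6.45 and 5.64 CPM, so this r mostly restates that both are high in that cluster. Itgav and Itgb1 had 0.760 and Itga4 and Itgb1 0.563, whereas Itga1 and Itga4 had −0.793, the lowest. Of the alpha chains Itga1 was also lower where Itgb1 was higher, with an r of −0.425.

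The miRNA given by the vector in the last group is shown by its mature arms, because the labels do not name the arm. They come from RefSeq (rat assembly GRCr8), run 5′ to 3′, and lie on the plus strand at chr1:87961227-87961248 for the 5p arm of 22 bases and chr1:87961266-87961288 for the 3p arm of 23 bases. Capitals mark the seed, bases 2 to 8, which differs between the arms.
rno-miR-330-5p: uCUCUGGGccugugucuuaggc
rno-miR-330-3p: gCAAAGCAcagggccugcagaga

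Promoters are shown for Trpv4 and Itga10, which were both high in the skeletal cluster of each library alone, and for Itga4, which had an r of −0.446 with Trpv4 and −0.498 with Itga10. Each is the 250 bases before the gene's start in RefSeq (GRCr8), printed 5′ to 3′ on the strand of the gene, and 7 of the 8 genes had an entry. They lie at chr12:47598938-47599187 for Trpv4, chr2:186871461-186871710 for Itga10 and chr3:84569765-84570014 for Itga4, all on the plus strand. Capitals mark matches, on either strand, to the letters searched for 5 families of factors. These were TGTGGT for RUNX, AACAAT for SOX, GGAATG for TEAD, GAGGAA for ETS and GGGCGG for SP, which 14.1%, 10.3%, 11.8%, 23.2% and 32.4% of 27457 promoters of this length hold.
Trpv4: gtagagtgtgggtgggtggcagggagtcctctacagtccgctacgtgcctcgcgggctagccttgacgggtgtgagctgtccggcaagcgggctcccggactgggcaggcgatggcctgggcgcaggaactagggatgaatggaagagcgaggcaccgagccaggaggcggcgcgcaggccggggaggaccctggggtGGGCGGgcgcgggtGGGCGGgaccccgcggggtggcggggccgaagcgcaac
Itga10: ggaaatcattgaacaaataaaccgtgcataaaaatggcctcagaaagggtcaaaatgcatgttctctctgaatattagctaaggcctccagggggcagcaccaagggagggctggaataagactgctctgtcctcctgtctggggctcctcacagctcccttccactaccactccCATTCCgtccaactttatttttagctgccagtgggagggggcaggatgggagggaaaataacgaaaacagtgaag
Itga4: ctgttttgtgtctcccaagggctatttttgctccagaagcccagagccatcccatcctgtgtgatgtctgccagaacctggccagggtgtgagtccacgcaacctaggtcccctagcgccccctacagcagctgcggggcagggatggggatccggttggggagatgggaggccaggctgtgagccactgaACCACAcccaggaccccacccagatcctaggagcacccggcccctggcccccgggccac

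The Trpv4 window had 2 SP matches and a GC content of 72.8%, the Itga10 window 1 TEAD match and 49.6%, and the Itga4 window 1 RUNX match and 64.4%, beside a median of 52.0% over all promoters. The Trpv4 and Itga10 windows shared no family of matches, and a match is a description of the sequence and not a site. Of the others, the Itga1 window had 0 matches, the Itga5 window 1 ETS and 1 SP match, the Itgav window 1 ETS and 2 SP matches, and the Itgb1 window 4 SP matches with an ETS and a TEAD match that overlap.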

How the data were processed

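Per the labels and the study's methods, single cells were prepared with 10x Genomics 3′ chemistry, cells were filtered on genes, UMIs and mitochondrial share, and the submitters' processing notes name Cell Ranger 7.0, STAR and Seurat 4.0.1 with the builds GRCh38 and mm10, although the identifiers are rat. For every library the authors deposited 1 table, in which each cluster has 3 columns. Its deposited mean counts hold a normalized signal: UMIs over a divisor that is the same for all genes of the cluster. The authors' log2 fold changes and adjusted p-values compare each cluster with the other clusters of the same library; neither was used here. Each mean was divided by the smallest mean above 0 of its cluster, and 100% of values came out whole, within 1.04e-07. UMIs of the 101, 106 and 116 names that stood on several identifiers were added. The depth was 77668015, 92629658 and 97255383 UMIs, and the smallest cluster held 1352666.

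Clusters were named from 18 marker lists. The skeletal and macrophage-marker clusters had the most markers of their list enriched (at least 10 UMIs and log2 of at least 1 against the rest of the library). Another cluster took the list with the most enriched markers at 50 CPM or more, at least 3, or the name B-cell-like with 9 B markers at that level, unless its 10 leading genes held more markers of another list. The naming rule was written with the tables in view. Doublets were not treated, free RNA was not subtracted, and the number of cells per cluster is unknown.

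Named genes are the 8 members, list members past the fold with levels apart (up to 3 each way), the 2 of each list with most UMIs in the skeletal cluster, and the 3 most like each member. Members and lists were chosen with earlier results of these data known. In tables with 200 genes changed by known ratios, 100% were recovered. That checks the calculation only and says nothing about differences between rats, the makeup of clusters or the scaling. The planned comparison of the integrin tails is not analysed here. The alternatives were other scalings, folds, UMI minimums, added UMIs, cluster weights and a neutrophil subtraction. Python 3.11.15, numpy 2.4.6, pandas 2.3.3, scipy 1.17.1 and matplotlib 3.10.9 were used.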

Additional observations from a re-analysis of the deposited data

How the results depend on the processing

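Of the 8 counts of called genes in the skeletal cluster and over all clusters, some moved with the setting. The 8 genes in the macrophage-marker cluster were not run under these settings, and only the shares of all genes were rescaled there. The cause of a move was not tested except where a lower or higher fold changes the count by construction. For UAC against sham in the skeletal cluster, 0 genes were higher by CPM at a ratio of 1.5, 2 on the deposited mean counts (Piezo1, Itgav, with 21.8% of all genes) and 4 at the lower ratio tried (Piezo1, Itga4, Itga5, Itgav, with 27.9%). Over all clusters the same count went from 0 to 1 on the deposited mean counts and at the lower ratio (Itga5 in both, with 12% and 14.7% of all genes) and to 1 without the skeletal cluster (Piezo1, with 7.73%), and the 2 lower genes became 1 at a ratio of 2 and 1 without the skeletal cluster (Trpv4 in both, with 1.92% and 3.07%) and 0 with classes weighted equally (4.88%). For miR-330 against UAC, the skeletal count of 1 higher became 2 at the lower ratio (Trpv4, Itga1, with 22% of all genes). Over all clusters the 2 higher genes became 4 on the deposited mean counts and at the lower ratio (with Itgav and Itgb1), where all genes went from 11.4% to 28.3% and 30.9%, 1 after centring (Itga4, with 6.43%) and 0 at a ratio of 2 (2.41%). Of 32 log2 ratios in the skeletal cluster and over all clusters, 7 changed direction on the deposited mean counts, 1 after centring and 0 with 5 UMIs added or with mitochondrial, ribosomal, haemoglobin and immunoglobulin genes left out of the total. Of 16 ratios over all clusters, 1 changed direction without the skeletal cluster and 1 with classes weighted equally. No paired analysis was possible because each condition had 1 library. Counting error, free RNA, doublets and the makeup of the skeletal cluster limit every value; differences between rats were not measured.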
